A study of Mus musculus with 4 samples.

Results

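The genes described here encode interleukin (IL)-2, IL-15 and the receptor chains for IL-2, IL-7 and IL-15. They are Il2, Il15, Il15ra, Il2ra, Il2rb, Il2rg and Il7r, chosen by name, which makes 7 members among the 32285 genes measured. Their transcripts were counted in single leukocytes from subcutaneous tumors of the KPC mouse pancreatic cancer line, grown in young adult, syngeneic male C57BL/6 mice. One group received no agonist (Untreated). Another received the STING agonist ADU-S100, a cyclic dinucleotide, once into the tumor, a further group received an agonist antibody to the lymphotoxin β receptor (LTβR, clone 4H8) repeatedly into the peritoneum, and the Combination group received both. All mice carried tumors, tumors of a group were pooled after resection, and live CD45+ cells were sorted, so each group is 1 library from 1 pool. CD45 marks leukocytes, and at least 1 molecule of its transcript Ptprc was found in 93.6% to 95.7% of cells.

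With 1 library per group the spread between pools is unknown, and no test between groups was possible. Levels are given as counts of unique molecular identifiers (UMIs, each standing for 1 captured transcript) scaled to a total of 1000000 UMIs for the same cell population and library (CPM). Values in brackets are exact Poisson 95% intervals for CPM and exact binomial ones for shares of cells, and they cover counting error only. Differences between libraries are given as the log2 ratio of CPM + 10, which understates the change of genes at low levels. The libraries of untreated, STING agonist, LTβR agonist and combination tumors held 7191, 3955, 7824 and 5869 barcodes with 32529174 to 60770280 UMIs, of which 6783, 3748, 7147 and 5333 cells passed the filters at a median of 5750 to 7094 UMIs. Between 1.87% and 2.51% of the kept cells of a library carried a barcode that also occurred in another library. Clusters that mixed markers of different lineages held 3.47% to 7.43% of cells and were left out of every population below. In the order of libraries just given, there were 1887, 1353, 2066 and 2009 T-like cells, 496, 272, 719 and 381 natural killer (NK)-like cells, 3051, 1488, 2935 and 1846 macrophage- or monocyte-like cells, and 547, 182, 376 and 192 dendritic-like cells.

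IL-2, IL-7 and IL-15 are cytokines that keep lymphocytes alive and drive their expansion. Their receptors share the common γ chain encoded by Il2rg, to which the IL-7 receptor adds Il7r and the IL-2 and IL-15 receptors add the β chain Il2rb, and all signal through JAK1, JAK3 and STAT5. The α chain Il2ra (CD25) raises affinity for IL-2 and is a hallmark of regulatory T cells, whereas the α chain Il15ra presents IL-15 made by myeloid cells to neighboring NK and CD8 T cells.

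By RefSeq on GRCm38.p6, Il2ra (ENSMUSG00000026770; chromosome 2, 11642792 to 11693194) and Il15ra (ENSMUSG00000023206; 11705172 to 11733985) lie next to each other on chromosome 2. Il2 (ENSMUSG00000027720) is on chromosome 3 at 37120713 to 37125954 and Il15 (ENSMUSG00000031712) on chromosome 8 at 82331624 to 82403252. Il2rb (ENSMUSG00000068227, 78479256 to 78511621) and Il7r (ENSMUSG00000003882, 9506159 to 9529941) are on chromosome 15, and Il2rg (ENSMUSG00000031304, 101264385 to 101268255) is on the X chromosome. STING and LTβR both act on the transcription factor NF-κB, STING also on interferon genes, and the receptors themselves on STAT5, so the promoters were searched on both strands for the κB consensus, for the interferon response motif (GAAA repeated after a gap of 2 bases) and for the STAT motif TTCNNNGAA. RefSeq promoter sequence, from 250 bases before the gene start to 50 after it, was found for 5 of the 7 members, all but Il2rb and Il15. Of 32851 promoters of that length, 8.46% held the κB consensus, 3.44% the interferon motif and 8.30% the STAT motif. Il2ra held overlapping κB matches, starting 201 and 200 bases before the gene start, and Il7r held a STAT match starting 142 bases before the start that the promoter table lists, which lies inside the Il7r span given above, while none of the 3 motifs was found in the windows of Il2, Il2rg and Il15ra. A match is a description of letters and not a bound site. Because Il2ra and Il7r hold the matches found and differed widely between T cell populations, these stretches are printed 5′ to 3′ with the matched bases in capitals, Il2ra from the plus strand at chr2:11642542-11642791 and Il7r from the minus strand at chr15:9529999-9530028.
Il2ra promoter, κB matches: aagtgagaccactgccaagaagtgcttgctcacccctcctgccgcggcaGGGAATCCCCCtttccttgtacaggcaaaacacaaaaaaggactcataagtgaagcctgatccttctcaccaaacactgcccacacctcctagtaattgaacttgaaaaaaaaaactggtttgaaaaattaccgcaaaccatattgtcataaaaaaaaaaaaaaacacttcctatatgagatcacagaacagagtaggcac
Il7r promoter, STAT match: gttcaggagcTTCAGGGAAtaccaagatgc

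Il2, the T cell growth factor, was found in few cells, and single cells set its level. T-like cells held 60 Il2 UMIs in the untreated library, 148 after the STING agonist, 49 after the LTβR agonist and 136 after the combination, or 5.80, 18.7, 4.64 and 11.3 CPM. T-like cells held 86.0% to 99.3% of all Il2 UMIs of a library, mixed clusters included. The cells with an Il2 UMI numbered 12, 13, 21 and 22, which is 0.636%, 0.961%, 1.02% and 1.10% of T-like cells. One cell alone carried 44, 133, 15 and 93 of the UMIs in the respective libraries, or 73.3%, 89.9%, 30.6% and 68.4%. The log2 ratio over untreated was 0.86 [0.57, 1.15] for the STING agonist, −0.11 [−0.38, 0.16] for the LTβR agonist and 0.43 [0.16, 0.70] for the combination, but these intervals treat UMIs of 1 cell as independent. Without the top cell of each library, chosen after seeing the data, Il2 stood at 1.55, 1.90, 3.22 and 3.58 CPM, and the ratio over untreated was 0.04 [−0.18, 0.27] for the STING agonist and 0.23 [0.01, 0.45] for the combination. The LTβR agonist library then stood above the untreated one, at 3.22 against 1.55 CPM, the reverse of their order with all cells.

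The cell with most Il2 was CD8 memory-like in the untreated and STING agonist libraries and CD4 helper-like in the LTβR agonist and combination libraries. In CD4 helper-like cells Il2 was at 7.20, 7.85, 32.7 and 129 CPM, with a UMI in 1.86%, 1.95%, 2.95% and 3.43% of cells. CD8 memory-like cells had another order, at 59.3, 144, 3.84 and 1.09 CPM, with shares of 1.64%, 1.70%, 1.69% and 0.459%. The shares of cells therefore differed far less between libraries than the levels did. No Il2 UMI was found in regulatory-like cells of any library. With 3 cells as the limit that a count of 0 allows, this leaves room for an Il2 UMI in up to 1.84%, 3.09%, 0.888% and 1.81% of the 163, 97, 338 and 166 cells, and it sets no limit on cells whose Il2 transcripts were not captured. NK-like cells held Il2 only in the LTβR agonist library, at 0.595 CPM.

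**Figure D1:**
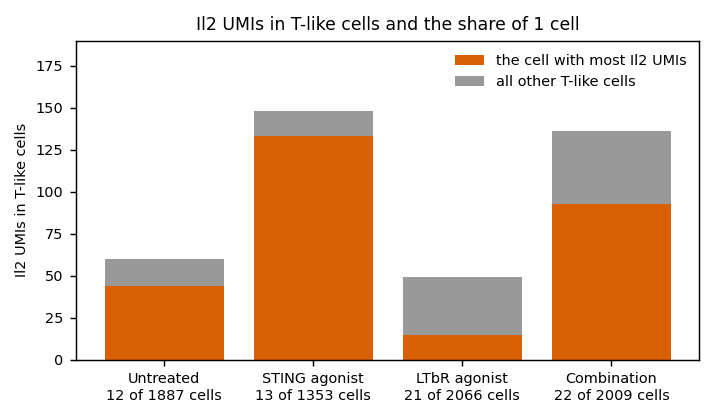
Number of Il2 UMIs (vertical axis) in T-like cells of each library. Orange marks the single cell with most Il2 UMIs and grey all other T-like cells, with the cells carrying an Il2 UMI given under each bar; the orange part is 133 of 148 UMIs in the STING agonist library and 15 of 49 in the LTβR agonist library.

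Il15, the second ligand, came mostly from myeloid cells, and neutrophil-like cells had its highest level in CPM. Neutrophil-like cells, named by S100a8, Csf3r and related genes, carried Il15 at 281, 429, 380 and 266 CPM, with a UMI in 45.6%, 50.5%, 55.7% and 38.2% of cells. Thinning to 1000 UMIs per cell left out 18, 9, 28 and 9 of these cells, and the shares among the others were 25.5%, 30.3%, 33.0% and 18.6%. CPM is relative to all UMIs of a population, and neutrophil-like cells had a median of only 1942 to 2405 UMIs. They held 186, 385, 473 and 50 Il15 UMIs in 226, 303, 370 and 68 cells. Mature dendritic-like cells held 133, 51, 74 and 58 in 173, 61, 110 and 59 cells. Counted per cell, neutrophil-like cells were thus not highest in every library. Among the classes, dendritic-like cells came next at 34.6 ± 6.04 CPM (SD over the 4 libraries, which are 4 conditions and not replicates) and macrophage- or monocyte-like cells stood at 30.6 ± 4.09 CPM, with overlapping ranges. NK-like cells had 5.78, 9.11, 12.2 and 11.2 CPM and T-like cells 1.74, 0.886, 2.18 and 1.33 CPM, so that macrophage- or monocyte-like cells exceeded T-like cells by 12.5-fold in the LTβR agonist library to 37.9-fold in the STING agonist library.

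Within the myeloid cells Il15 was uneven. Mature dendritic-like cells, the migratory Ccr7- and Fscn1-positive state, had 78.3, 83.4, 72.9 and 92.5 CPM. Macrophage-like cells led by Rsad2 and Cmpk2, both interferon-induced antiviral genes, had 87.7, 91.0, 73.7 and 55.2 CPM, and a macrophage-like sub-cluster led by Psd3 and Zdhhc14 had 68.0, 95.2, 132 and 65.3 CPM. The ranges of these populations overlapped. Cxcl9 monocyte-derived-like cells followed at 67.9, 57.2, 51.5 and 56.7 CPM, which is 5.49-, 3.87-, 2.74- and 2.66-fold the level of C1q Trem2 macrophage-like cells at 12.4, 14.8, 18.8 and 21.3 CPM. Inflammatory macrophage-like cells were lower still, at 7.33, 6.46, 6.52 and 3.26 CPM.

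Between libraries, Il15 in neutrophil-like cells was higher after the STING agonist, with a log2 ratio of 0.59 [0.25, 0.94], and higher after the LTβR agonist at 0.42, whereas the combination gave −0.08 from 68 cells. In macrophage- or monocyte-like cells Il15 was 34.7, 33.6, 27.2 and 27.0 CPM, with ratios over untreated of −0.26 [−0.42, −0.11] for the LTβR agonist and −0.27 [−0.45, −0.10] for the combination. The latter was −0.10 with the sub-clusters of the class weighted equally and −0.51 with cells thinned to 1000 UMIs. Monocyte-like cells had 56.2, 58.7, 29.6 and 37.8 CPM, and the LTβR agonist gave −0.74 [−1.28, −0.20] there. Cells led by Rsad2 and Cmpk2 were lower in the combination library, at −0.58 [−1.08, −0.09]. Neutrophil-like cells made up 3.33%, 8.08%, 5.18% and 1.28% of filtered cells and held 12.4%, 36.4%, 32.5% and 7.86% of the Il15 UMIs of a library. Over all filtered cells the STING agonist ratio was 0.27 [0.15, 0.39], and without the neutrophil-like cells it was −0.06 [−0.19, 0.08]. The LTβR agonist ratio was 0.04 [−0.07, 0.15] with them and −0.21 [−0.32, −0.09] without them. The combination ratio changed less, from −0.51 [−0.63, −0.38] with them to −0.45 [−0.58, −0.32] without them. In sums over all cells, fewer cells of a type and less RNA per cell cannot be told apart.

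Il15ra, the chain that presents IL-15, was highest in mature dendritic-like cells, at 225, 209, 179 and 202 CPM, with a UMI in 64.7%, 62.3%, 53.6% and 57.6% of cells. Cells led by Rsad2 and Cmpk2 came next at 102, 113, 110 and 123 CPM, and no library of either population overlapped with the other. Conventional dendritic cells of the cDC2-like kind had 13.7, 19.7 and 8.57 CPM in the untreated, STING agonist and LTβR agonist libraries that held enough of them. Between libraries the gene differed in Cxcl9 monocyte-derived-like cells. There Il15ra stood at 29.8, 37.8, 45.1 and 81.7 CPM, the combination being above every other library, with ratios over untreated of 0.47 for the LTβR agonist and 1.20 [0.87, 1.53] for the combination. The share of those cells with a UMI was 17.7%, 27.6%, 25.4% and 41.8%, and after thinning it was 3.01%, 5.23%, 4.67% and 6.58%. Of 7171 genes measured in that population, 3.37% were past a log2 ratio of 0.5 upward in the combination. C1q Trem2 macrophage-like cells had 16.6, 15.5, 10.7 and 23.6 CPM, and the macrophage class as a whole 29.0, 30.8, 27.5 and 36.5 CPM, a combination ratio of 0.25 [0.08, 0.43] that turned to −0.059 with cells thinned to 1000 UMIs. In T-like cells the gene was low at 22.4, 19.2, 14.1 and 14.5 CPM, with −0.41 [−0.66, −0.14] for the combination.

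**Figure D2:**
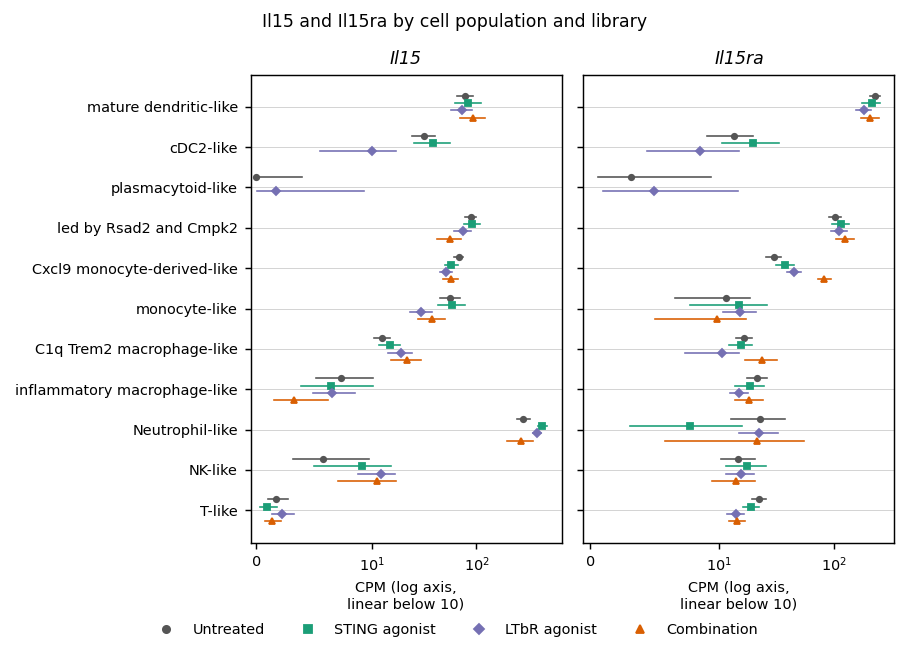
Il15 (left) and Il15ra (right) in CPM (horizontal axis, logarithmic above 10 and linear below) for cell populations with at least 50 cells in a library; each marker is 1 library and its line the exact Poisson 95% interval. Neutrophil-like cells stand highest for Il15 at 266 to 429 CPM and mature dendritic-like cells highest for Il15ra at 179 to 225 CPM.

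Among the receptor chains, Il2ra separated regulatory-like T cells, named by Foxp3, Ikzf2 and Ctla4, from the rest. They carried 1801, 2418, 1712 and 1804 CPM, with a UMI in 87.1%, 89.7%, 87.3% and 89.8% of cells, and stood 13.3-, 16.1-, 12.7- and 11.4-fold above the rest of the T-like cells. Gamma-delta-like T cells, at 740, 756, 649 and 536 CPM, were second among the populations measured in at least 3 libraries. Th2- or ILC2-like cells, measured in 2 libraries, had 511 CPM after the LTβR agonist and 536 CPM after the combination, which reached the lower end of the gamma-delta-like range. T cells led by Myo10 and Dlg2 (246 ± 24.3 CPM, SD over 4 libraries) and CD4 helper-like cells (232 ± 28.3 CPM) overlapped with each other. CD8 memory-like cells had 79.8, 79.9, 89.6 and 92.9 CPM and CD8 exhausted-like cells, named by Pdcd1, Lag3 and Havcr2, 71.3, 68.7, 70.4 and 103 CPM. In naive-like cells, of which only the LTβR agonist and combination libraries held at least 50, it was 10.5 and 13.8 CPM.

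After the STING agonist Il2ra in regulatory-like cells was above the untreated level, with a ratio of 0.42 [0.25, 0.60], while the LTβR agonist gave −0.07 and the combination 0.00 [−0.15, 0.16]. The T-like class as a whole had 239, 268, 336 and 273 CPM, and its highest ratio over untreated, 0.48 [0.37, 0.58], was in the LTβR agonist library. Regulatory-like cells held 49.4% of all Il2ra UMIs in that library and 30.6% in the untreated one, and with the sub-clusters of the class weighted equally the ratio was 0.07. CD8 exhausted-like cells had a UMI in 25.4%, 32.5%, 20.7% and 38.5% of cells, or 6.14%, 4.70%, 4.78% and 8.69% after thinning, and their combination ratio was 0.47 [0.21, 0.73]. Gamma-delta-like cells were lower in the combination at −0.46 [−0.79, −0.12]. Cycling T-like cells, measured in 2 libraries, had 103 CPM after the LTβR agonist and 318 CPM after the combination, a ratio of 1.54 [1.06, 2.02] between them.

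Outside T cells, Il2ra was found in dendritic-like, NK-like and B- and plasma-like cells. B- and plasma-like cells held 12, 1, 5 and 131 Il2ra UMIs in 59, 15, 176 and 540 cells. Mixed clusters, left out of every population, held 20.1%, 8.80%, 14.4% and 10.2% of all Il2ra UMIs. Mature dendritic-like cells had 137, 119, 105 and 31.9 CPM, with a UMI in 38.2%, 39.3%, 34.5% and 18.6% of cells, and the combination library was below the other libraries with a ratio over untreated of −1.81 [−2.49, −1.14]. In that population 11.4% of 4323 genes were past a ratio of 0.5 downward. The dendritic-like class went from 53.4, 49.1 and 49.9 to 15.6 CPM, and the combination was lower in 3 of 3 sub-clusters. Markers of T-like cells summed to 20.5, 24.8, 29.2 and 11.7 CPM in dendritic-like cells, with 7 of 7 detected in every library, and their part in this result was not tested. NK-like cells led by Gzmc and Klrb1b, the latter a lectin-like receptor, had Il2ra at 50.9, 83.0, 80.6 and 93.4 CPM against 10.8, 12.6, 13.8 and 18.2 CPM in conventional NK-like cells. For neutrophil-like cells, taken as a class that should lack the gene, a UMI was found in 1.33%, 1.65% and 2.16% of cells and in 0 of 68 combination cells, which by the same limit allows a UMI in up to 4.41% of cells. Macrophage- or monocyte-like cells showed one in 2.08% to 3.57% of cells, with a median of 7552 to 10308 UMIs per cell against 1942 to 2405 in neutrophil-like cells, so that Il2ra in macrophages was not told apart from background.

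Il2rb, the β chain shared by the IL-2 and IL-15 receptors, was highest in NK-like cells. They had 1290, 1448, 1304 and 1395 CPM, with a UMI in 87.9% to 95.5% of cells, and stood 1.47-, 1.74-, 1.65- and 1.99-fold above T-like cells. Conventional NK-like cells (1408 ± 50.5 CPM, SD over 4 libraries) and those led by Gzmc and Klrb1b (1364 ± 142 CPM) overlapped, and both were above CD8 exhausted-like cells at 1124, 1149, 1134 and 969 CPM. CD8 Ly49-like cells had 825, 819, 835 and 779 CPM and regulatory-like cells 763, 718, 768 and 672 CPM. CD4 helper-like and gamma-delta-like cells overlapped at 486 to 540 and 464 to 556 CPM, and naive-like cells were lower at 333 and 246 CPM in the libraries that held them. Dendritic-like cells had 5.35 to 10.8 CPM and macrophage- or monocyte-like cells 1.55 to 4.63 CPM. Neutrophil-like cells had 71.1, 54.6, 28.9 and 5.32 CPM, from 47, 49, 36 and 1 UMIs, with a UMI in 1.47% to 5.75% of cells. The source of these UMIs was not tested. The deeper macrophage cells had one in 1.61% to 3.07%, so that Il2rb in macrophages was not told apart from background.

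In T-like cells Il2rb was 880, 831, 792 and 700 CPM, and the combination ratio over untreated was −0.33 [−0.39, −0.27], lower in 11 of 14 sub-clusters and −0.23 with these weighted equally. Naive-like cells, low for the gene, numbered 21, 10, 63 and 187. CD8 exhausted-like cells gave −0.21 [−0.29, −0.13] for the combination. NK-like cells differed less, with 0.16 for the STING agonist and 0.11 [0.01, 0.22] for the combination. NK-like cells led by Lrmda and Gas7 had 856, 1238 and 974 CPM in the first 3 libraries, and without them, a choice made after seeing the data, the combination ratio of the class was 0.00.

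Il2rg, the common γ chain, was found at similar levels in T-like and NK-like cells. T-like cells had 457, 595, 440 and 479 CPM and NK-like cells 412, 560, 396 and 442 CPM, and these ranges overlapped. Regulatory-like cells led the T cell order at 558, 826, 590 and 622 CPM, also overlapping with the populations that followed. Dendritic-like cells had 180, 274, 183 and 229 CPM, macrophage- or monocyte-like cells 168, 218, 186 and 250 CPM, and neutrophil-like cells 86.2, 104, 90.1 and 117 CPM.

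The STING agonist library was the highest of the 4 for Il2rg in T-like, NK-like and dendritic-like cells. Its ratio over untreated was 0.37 [0.29, 0.45] in T-like cells, where it was higher in 11 of 11 sub-clusters, 0.43 [0.25, 0.62] in NK-like cells and 0.57 [0.37, 0.77] in dendritic-like cells. With both agonists the T-like ratio was 0.07 [−0.01, 0.14]. The macrophage class showed another order, in which the combination was highest at 0.55 [0.46, 0.63], against 0.35 [0.27, 0.44] for the STING agonist and 0.13 for the LTβR agonist. The combination was higher in 12 of 14 macrophage sub-clusters and 0.55 with these weighted equally. Cxcl9 monocyte-derived-like cells had 169, 199, 230 and 352 CPM, a combination ratio of 1.02 [0.85, 1.19]. Monocyte-like cells had 107, 102, 214 and 267 CPM, with 0.94 [0.61, 1.28] for the LTβR agonist and 1.25 [0.88, 1.62] for the combination. The lead of T-like over macrophage- or monocyte-like cells was 2.72-, 2.73-, 2.37- and 1.91-fold.

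Il7r, the IL-7 receptor α chain, was at 1257, 1092, 1440 and 1311 CPM in gamma-delta-like T cells, the highest of the populations measured in at least 3 libraries. Th17-like cells, measured in 2 libraries, had 1417 CPM after the STING agonist, above the gamma-delta-like cells there, and 987 CPM after the LTβR agonist, below them. CD4 helper-like cells, at 674, 847, 719 and 670 CPM, came next among populations measured in at least 3 libraries, without overlapping with gamma-delta-like cells. Naive-like cells had 550 and 629 CPM in the LTβR agonist and combination libraries, 4.15- and 2.92-fold the CD8 exhausted-like level there. CD8 exhausted-like cells were at 198, 257, 133 and 215 CPM, below CD8 memory-like cells at 360, 310, 371 and 424 CPM.

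Regulatory-like cells, commonly described as low for Il7r, had 365 CPM in the untreated library and 644, 580 and 642 CPM after the STING agonist, LTβR agonist and combination. All agonist libraries were above the untreated one, with ratios of 0.81 [0.45, 1.16], 0.66 [0.37, 0.94] and 0.80 [0.50, 1.10]. A UMI was found in 47.9%, 70.1%, 67.8% and 80.1% of these cells. In the combination 9.03% of 3233 genes measured in regulatory-like cells were past 0.5 upward. CD8 Ly49-like cells had 291, 378, 418 and 446 CPM, with 0.60 [0.32, 0.88] for the combination. CD8 exhausted-like cells were lower after the LTβR agonist at −0.54 [−0.77, −0.32]. T-like cells as a whole had 354, 490, 411 and 442 CPM, or ratios of 0.46 [0.37, 0.55], 0.21 and 0.32 [0.23, 0.40]. The last of these was 0.17 with cells thinned to 1000 UMIs and 0.20 with the sub-clusters weighted equally.

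Il7r was also present in NK-like, dendritic-like and macrophage-like cells. NK-like cells led by Gzmc and Klrb1b had 102, 199, 117 and 237 CPM, with 0.90 [0.27, 1.54] for the STING agonist and 1.15 [0.52, 1.79] for the combination, where 4.83% of 1719 genes were past 0.5 upward. They held 48, 122, 61 and 122 of the 174, 196, 231 and 160 Il7r UMIs of NK-like cells. Those led by Lrmda and Gas7 held 108, 59, 98 and 14, from 166, 68, 125 and 36 cells. In conventional NK-like cells 3.05% to 5.88% of cells had a UMI, against 3.30% to 5.88% of the shallower neutrophil-like cells, which was read as background. Mature dendritic-like cells were steady at 482, 502, 456 and 469 CPM. Macrophage- or monocyte-like cells had 168, 206, 139 and 105 CPM, with a UMI in 37.7%, 45.4%, 33.0% and 24.9% of cells, and the combination was below every other library at −0.63 [−0.74, −0.53] over untreated and −0.91 over the STING agonist. It was lower than untreated in 11 of 14 macrophage sub-clusters, and −0.33 with these weighted equally. Inflammatory macrophage-like cells had 340, 370, 230 and 245 CPM, C1q Trem2 macrophage-like cells 157, 212, 121 and 104 CPM, and monocyte-like cells 4.11 to 9.58 CPM, with a UMI in 3.55% to 4.32% of cells. In Cxcl9 monocyte-derived-like cells the STING agonist library was highest, with 28.8, 63.3, 45.1 and 31.4 CPM and a ratio of 0.92 [0.59, 1.25]. Neutrophil-like cells held 32, 36, 62 and 15 Il7r UMIs among 660963, 897366, 1243587 and 187879 in all. The CPM of Cxcl9 monocyte-derived-like cells was above theirs only in the STING agonist library. The part of background in this ratio was not tested.

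**Figure D3:**
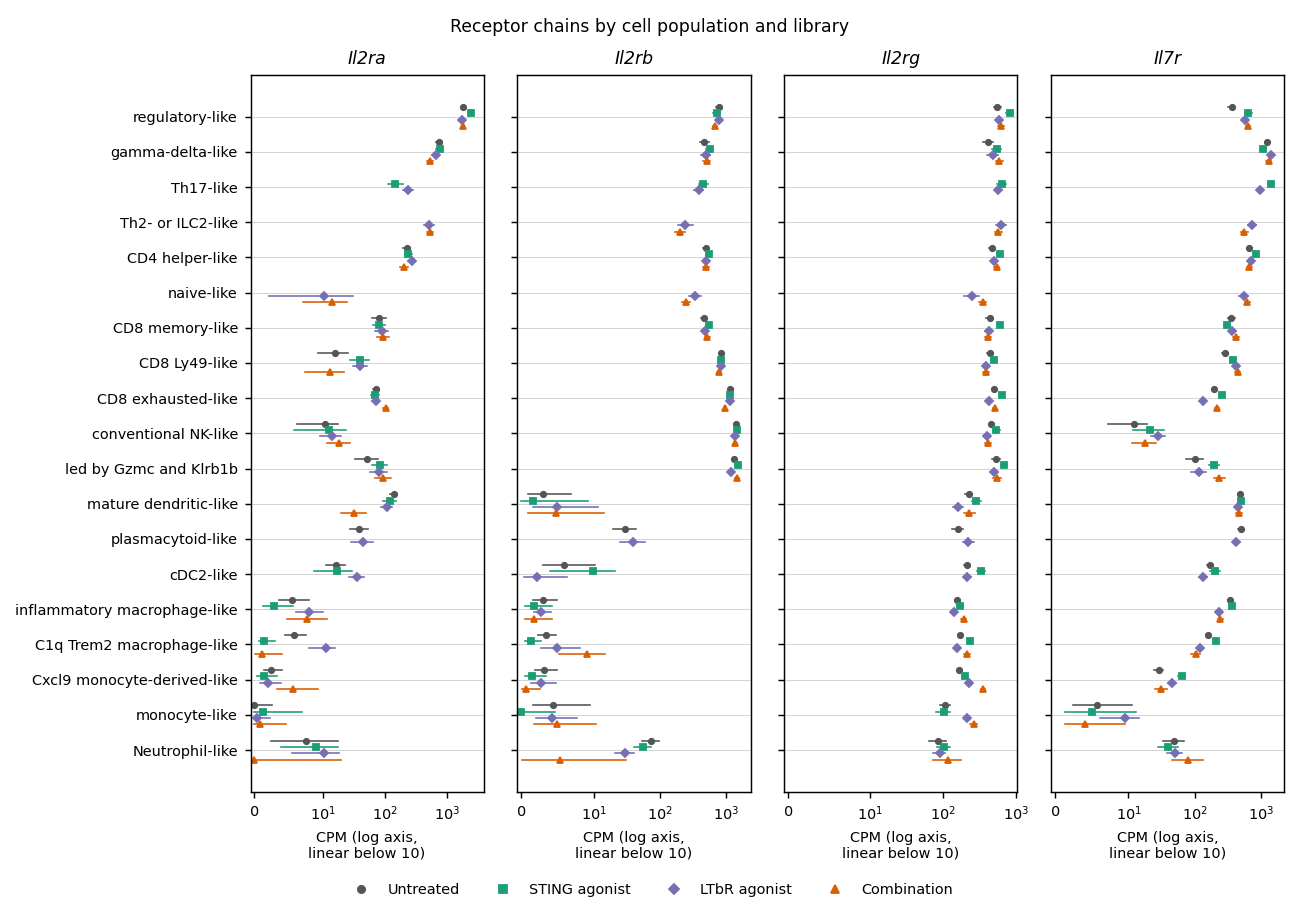
Il2ra, Il2rb, Il2rg and Il7r in CPM (horizontal axes, logarithmic above 10 and linear below) for lymphoid, dendritic, macrophage and neutrophil populations with at least 50 cells in a library; each marker is 1 library and its line the exact Poisson 95% interval. Il2ra stands highest in regulatory-like cells at 1712 to 2418 CPM, Il2rb in NK-like populations, and Il7r is at 1092 to 1440 CPM in gamma-delta-like cells, with Th17-like cells above them in the STING agonist library.

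A high-affinity IL-2 receptor needs all of Il2ra, Il2rb and Il2rg in the same cell. A UMI of each was found in 54.6% [46.6, 62.4], 61.9%, 63.0% and 69.9% [62.3, 76.7] of regulatory-like cells. After thinning to 1000 UMIs per cell the shares were 15.6%, 20.4%, 15.5% and 13.9%, so the untreated-to-combination order was not kept at equal depth, and the median UMI count of these cells was 3299, 3579, 3417 and 4194. Multiplying the shares of the single chains gave 42.8%, 53.6%, 54.4% and 62.5%, below the observed share in each library. Cells of a population differ in depth, and deeper cells are likelier to hold a UMI of each gene. Shares found together can therefore exceed the product without any link between the genes, so no link is read from this. Gamma-delta-like cells had all chains in 28.4%, 48.2%, 27.9% and 45.0% of cells and CD8 exhausted-like cells in 24.0%, 31.9%, 17.8% and 35.7%. In CD8 exhausted-like cells the thinned shares were 2.28%, 1.57%, 0.957% and 1.85%, close to the level of single UMIs.

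Il2rb and Il2rg, which together form the intermediate-affinity receptor for IL-2 and IL-15, were found in 56.7%, 74.6%, 66.8% and 73.8% of NK-like cells and in 88.6%, 94.4%, 85.5% and 89.6% of CD8 exhausted-like cells. The thinned shares in NK-like cells were 18.9%, 28.1%, 22.5% and 23.4%. Il2ra and Il7r, often used as opposite marks of T cells, occurred together in 41.1%, 64.9%, 59.8% and 74.1% of regulatory-like cells, and in 17.5%, 26.9%, 25.9% and 39.9% after thinning. The untreated library was lowest and the combination highest on both scales. Il15 and its presenting chain Il15ra were found together in 35.8%, 27.9%, 25.5% and 37.3% of mature dendritic-like cells, against products of the single shares of 29.9%, 21.4%, 21.0% and 31.3%. Unequal depth of the cells can put the observed shares above these products too, so no link between the genes is read from them. In Cxcl9 monocyte-derived-like cells both were found in 6.15%, 9.82%, 9.50% and 12.5% of cells.

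**Figure D4:**
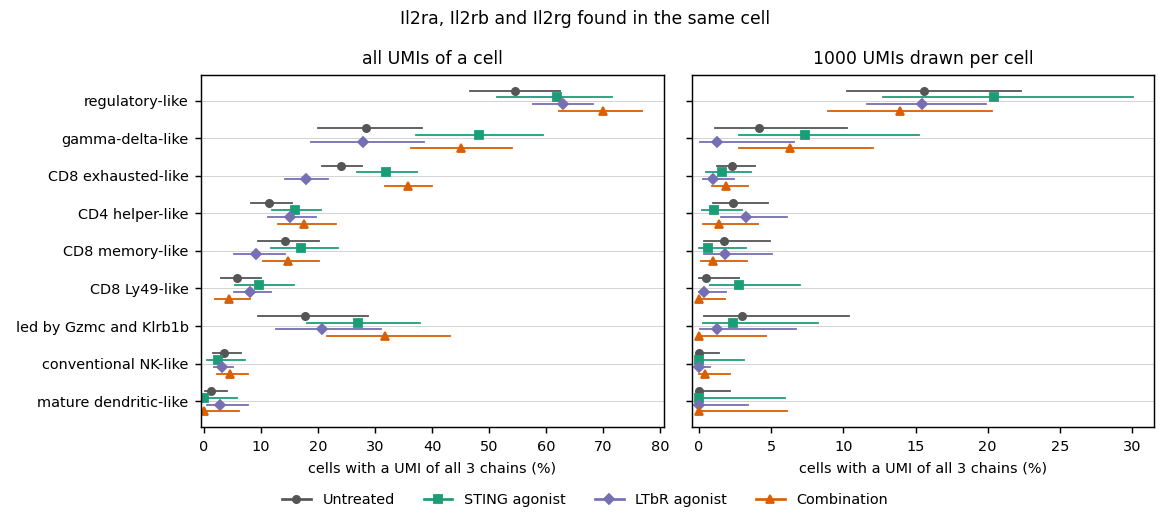
Percent of cells with at least 1 UMI of each of Il2ra, Il2rb and Il2rg (horizontal axes), with all UMIs of a cell on the left and 1000 UMIs drawn per cell on the right; each marker is 1 library and its line the exact binomial 95% interval. Regulatory-like cells stand highest on both scales, at 54.6% to 69.9% and 13.9% to 20.4%.

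Set beside all genes, few members differed by a log2 ratio of at least 0.5 in a whole class, counting only genes with at least 50 UMIs in 1 of the libraries compared. The 3 agonist libraries share the untreated library, so their counts are not independent of each other. In T-like cells 1 of 6 measured members was higher after the STING agonist, Il2, and 0 were lower, where 1.31% of all genes were higher and 0.955% lower. Without the top cell of each library, T-like cells held 16, 15, 34 and 43 Il2 UMIs. Il2 was thus among the measured members only through those cells. Its STING agonist ratio without them was 0.04, and no measured member was then higher. After the LTβR agonist and after the combination the count was 0 of 6 in T-like cells, beside 1.13% and 0.823% of all genes higher and 1.46% and 1.56% lower. In NK-like cells the STING agonist had 2 of 4 higher, Il2ra with 0.78 [0.22, 1.33] and Il7r with 0.75 [0.37, 1.13], against 3.73% of all genes higher and 3.37% lower. The cells led by Gzmc and Klrb1b, in which both genes stood above conventional NK-like cells, were 85 of 272 NK-like cells in that library and 68 of 496 in the untreated one. Those led by Lrmda and Gas7, which held 59 and 108 of the Il7r UMIs, were 68 and 166 cells in the same order. With the sub-clusters weighted equally the ratios were 0.46 for Il2ra and 0.56 for Il7r. The NK-like LTβR agonist count was 0 of 5, beside 0.771% higher and 1.88% lower. For the combination 1 of 4 was higher in NK-like cells, Il2ra at 0.52 [−0.01, 1.06], against 1.71% higher and 7.44% lower.

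Macrophage- or monocyte-like cells had 0 of 6 members past 0.5 after the STING agonist, where 0.335% of genes were higher and 0.115% lower, and 0 of 6 after the LTβR agonist, where 1.46% were higher and 0.95% lower. After the combination 1 of 6 was higher, Il2rg, and 1 was lower, Il7r, against 2.61% and 1.63% of all genes. In dendritic-like cells the STING agonist had 1 of 6 higher, Il2rg, where 2.09% of genes were higher and 1.47% lower. The LTβR agonist had 0 of 6, where 1.45% were higher and 1.02% lower. The combination had 1 of 6 lower, Il2ra at −1.31 [−1.76, −0.85], where 2.13% of genes were higher and 3.81% lower. Transcripts of the macrophage marker list summed to 678 to 883 CPM in T-like, 324 to 717 CPM in NK-like and 1478 to 1868 CPM in dendritic-like cells, and their part in these ratios was not tested.

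**Figure D5:**
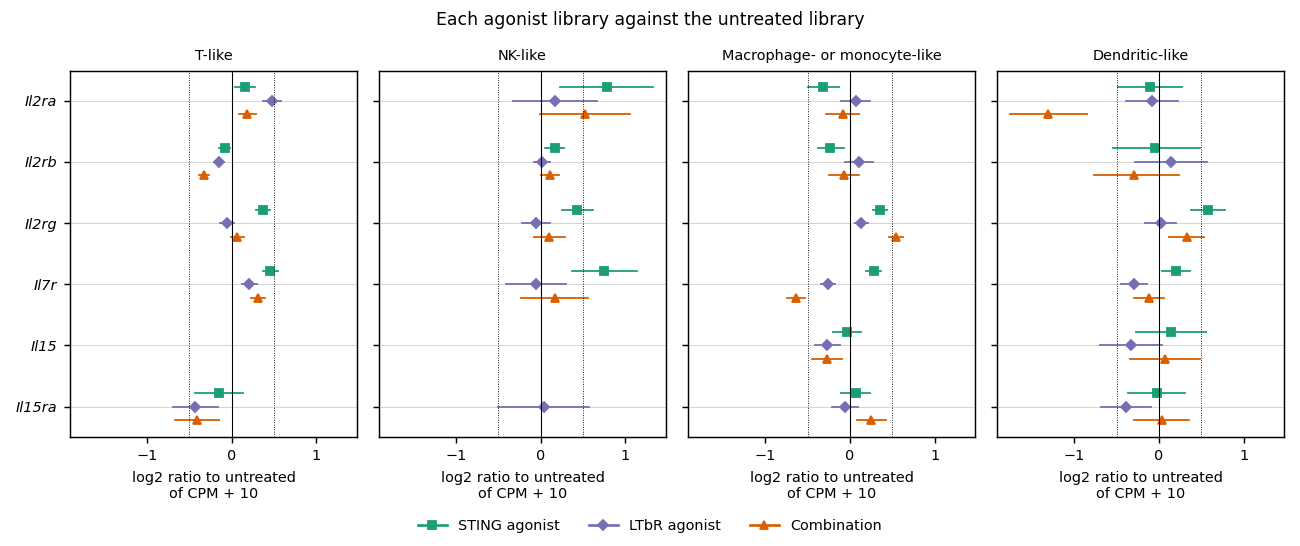
Log2 ratio of CPM + 10 over the untreated library (horizontal axes) for 6 members in 4 cell classes, shown where a member had at least 50 UMIs in 1 of the libraries compared; colors and shapes mark the agonist library, lines the 95% counting interval, and dotted lines a ratio of 0.5 in either direction. Il2ra in dendritic-like cells after the combination stands apart at −1.31, and Il7r is at 0.32 in T-like and −0.63 in macrophage- or monocyte-like cells.

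The same pathway was followed in 25 other genes, the remaining γ-chain cytokines and receptors, JAK and STAT genes, feedback inhibitors and targets. After the combination 1 of 22 measured in T-like cells was higher by at least 0.5, where 0.823% of all genes were, the type 2 cytokine Il4, at 1.35 CPM in the untreated and 9.65 CPM in the combination library. The STAT5-induced inhibitor Cish was at 110 and 160 CPM there, a ratio of 0.50 [0.36, 0.64] that stayed just under the limit before rounding, and its relatives Socs2 and Socs1 had 0.43 and 0.35. The median of the list was 0.04, against −0.03 over all genes. After the STING agonist, where 1.31% of all genes were higher, 4 of 20 were higher in T-like cells, the inhibitor Socs1, the growth regulator Myc and the survival kinases Pim1 and Pim2, with a list median of 0.17 against 0.02 over all genes. After the LTβR agonist, where 1.13% of all genes were higher, it was 1 of 21, Il4, with medians of 0.05 and −0.01. Th2- or ILC2-like cells, whose marker list includes Il4, numbered 21, 10, 55 and 91 in the order of libraries. Their part in the Il4 ratios was not tested.

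In NK-like cells 2 of 17 were lower after the combination, where 7.44% of all genes were lower, the IL-21 receptor Il21r from 113 to 53.5 CPM (−0.95 [−1.35, −0.55]) and the survival gene Bcl2 from 1565 to 1082 CPM (−0.53), with Cish at 0.40, Stat5b at −0.40 and a list median of −0.07 against −0.06. Cells led by Lrmda and Gas7 were 166 of 496 NK-like cells in the untreated and 36 of 381 in the combination library. Their part in these ratios was not tested. Macrophage- or monocyte-like cells, where 2.61% of all genes were higher and 1.63% lower, had 1 of 18 higher, Socs1 from 88.4 to 159 CPM (0.78 [0.67, 0.89]), and 2 lower, the IL-4 receptor chain Il4ra from 287 to 166 CPM (−0.76) and the kinase Jak3 from 38.5 to 24.2 CPM (−0.50). The list median there was −0.02 against 0.03. In dendritic-like cells, where 3.81% of all genes were lower, 1 of 17 was lower, Socs2 from 147 to 97.2 CPM (−0.55), while Il4ra, Cish and Bcl2 had −0.46, 0.45 and −0.40, and the list median was −0.20 against −0.03. These medians lay within 0.2 of that of all genes in each class.

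Genes whose levels followed those of a member most closely were ranked by Pearson correlation of log2 CPM + 10 over 101 sums of a library and a population, taken from 31 populations, among 8131 genes. The sums share libraries and lineages, so the values only describe likeness. For Il2 they were the chemokine Ccl1 at 0.71, the T cell help ligand Cd40lg at 0.62 and the cytokine Il21 at 0.58. For Il2ra they were Zdhhc2 and Aebp2 at 0.87 and Smco4 at 0.86, and for Il2rb Sh2d2a and Gm19585 at 0.98 and Sytl3 at 0.97. The nearest to Il2rg were Shisa5 at 0.80, with H2-K1 and the growth factor Flt3l at 0.77, and to Il7r H2-Q4 at 0.73, with H2-Q7 and Spef2 at 0.70. The H2 genes have near-identical copies between which reads may be shared, so these are uncertain. Il15 was followed most closely by Snap23 at 0.84 and by Txnrd1 at 0.82, and Il15ra by Car13 at 0.74, Pcgf5 at 0.72 and Aftph at 0.70.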

How the data were processed

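Per the labels and the study's methods, CD45+ cells were profiled by 5′ single-cell RNA sequencing and the authors made raw UMI counts per gene and barcode with Cell Ranger 7.1.0 on mm10, deposited as 1 matrix in which barcode suffixes mark the library. The study made more than 1 single-cell experiment and the sources used here do not say which this is.

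From these counts, cells with 300 to 5000 genes and at most 6% mitochondrial UMIs were kept, scaled to 10000 UMIs and logged. Leiden clusters (resolution 1, 2000 variable genes without V(D)J genes and without the members, 30 components, 20 neighbours, seed 0) were made with scanpy 1.11.5 and igraph 0.11.9, with no batch correction. Clusters were named "-like" from marker lists, needing 3 markers detected in 10% of cells. Clusters of all cells also needed a lead of 0.2 in score over the next compartment. Sub-clusters needed no such lead, but a marker of the list among their top 30 genes. These thresholds were set after seeing the clusters. Clusters of all cells that missed their limits, or limits on depth and leading genes, were called mixed. So were sub-clusters with at least 2 top-30 genes of another compartment, outnumbering their own. Doublets were not removed otherwise. Cells with a Scrublet score above 0.2 numbered 74 to 233 per library and were left out as an alternative.

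UMIs were summed per library and population of at least 50 cells, because cells are not replicates. Ratios added 10 CPM, and their interval pairs the ends of both exact intervals, which makes it wide. The ratio code was tested on simulated data. Named genes were the 7 members, in 4 classes the 4 genes of the pathway list with the widest combination ratio, and for each member the 3 genes nearest by correlation. For Il15, 1 of these is not reported here. The members and lists were chosen with earlier results of these data known. Versions were Python 3.11.15, numpy 2.4.6, scipy 1.17.1, pandas 2.3.3 and matplotlib 3.10.9.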

Additional observations from a re-analysis of the deposited data

Results flagged for a closer look

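In all, 6 pairs of log2 ratios had opposite signs with intervals on opposite sides of 0. None of the differences was tested, each value comes from 1 library over 1 library, and the comparisons share libraries.

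Il2ra in T-like cells was 0.16 [0.04, 0.27] for the STING agonist over untreated and −0.29 [−0.38, −0.20] for the combination over the LTβR agonist. The class held different shares of regulatory-like cells, 338 of 2066 cells in the LTβR agonist and 166 of 2009 in the combination library, and the combination was above the LTβR agonist both in regulatory-like cells (1804 against 1712 CPM) and in the rest of the T-like cells (158 against 134 CPM). Over untreated, the combination had Il2ra at 0.19 [0.08, 0.29] in T-like and −1.31 [−1.76, −0.85] in dendritic-like cells. Il2rb was −0.33 [−0.39, −0.27] in T-like and 0.11 [0.01, 0.22] in NK-like cells in the same comparison.

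Il7r in macrophage- or monocyte-like cells was 0.28 [0.19, 0.37] for the STING agonist over untreated and −0.37 [−0.48, −0.26] for the combination over the LTβR agonist. For the combination over untreated, Il7r was 0.32 [0.23, 0.40] in T-like and −0.63 [−0.74, −0.53] in macrophage- or monocyte-like cells. The T-like value was 0.17 with cells thinned to 1000 UMIs. Il15ra was −0.41 [−0.66, −0.14] in T-like and 0.25 [0.08, 0.43] in macrophage- or monocyte-like cells, and the latter was −0.059 when thinned to 1000 UMIs per cell.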

How the results depend on the processing

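Of 80 alternative values for 7 log2 ratios of the combination over untreated, 67 stayed within the counting interval of the reported value, 13 moved beyond it and 76 kept its sign. Il2 in T-like cells (0.43) was 0.86 with 1 CPM added, 0.14 with 50 CPM and 0.11 without its top 10 cells. Il2ra in regulatory-like cells (0.00) was −0.23 as a mean over cells and −0.24 thinned to 1000 UMIs. Il2rb in NK-like cells (0.11) was 0.27 as a mean over cells, 0.26 with sub-clusters weighted equally and 0.0025 without cells led by Lrmda and Gas7. Il7r in T-like cells (0.32) was 0.23 as a mean over cells, 0.20 with sub-clusters weighted equally and 0.17 thinned. In macrophage- or monocyte-like cells thinning took Il15 from −0.27 to −0.51 and Il15ra from 0.25 to −0.059. Besides these ratios, the share of combination regulatory-like cells with all 3 IL-2 receptor chains, 69.9%, was 13.9% thinned, which by construction holds fewer UMIs per cell; other causes were not tested. Il2rg in T-like cells (0.07) moved under none of 11. Leaving out cells with shared barcodes, the top Il2 cell, cells led by Lrmda and Gas7 or naive-like cells was chosen after seeing the data. No paired analysis was possible because each group is 1 library and no result comes from a test, and for the same reason no library could be left out. Il2 and Il15 outside neutrophil-like cells rest on few UMIs per cell, so shares of cells with a UMI are set largely by depth.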
